A study of Mus musculus with 9 samples.

Results

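The nuclear genes of the mitochondrial respiratory chain and of ATP synthase were followed across 3 cell populations sorted from mice. Members were the genes whose symbol in the array's annotation begins with Nduf followed by a, b, c, s or v, with Sdha to Sdhd, Uqcr, Cox4 to Cox8 or Atp5, each read through its brightest probe set with a single symbol. The rule took 89 of the 19938 genes measured. By their known roles 82 of these encode subunits and 7, Ndufaf1 to Ndufaf7, encode assembly factors that help to build complex I and are not part of the finished enzyme, so the name respiratory chain subunit holds for 82. The members comprised 41 genes of complex I (34 subunits and the 7 assembly factors), 4 of complex II, 8 of complex III, 19 of complex IV and 17 of complex V. Of the 19 complex IV genes, 8 encode forms known from particular tissues or conditions. Ndufa4 and its relative Ndufa4l2 were counted with complex IV, where the Ndufa4 protein is now placed. Ndufb4 and Cox7c were not analysed here. The 89 genes lie on 19 chromosomes, with 3 on the X (Ndufa1, Ndufb11 and Cox7b).

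Complexes I and II pass electrons from NADH and succinate to ubiquinone, complex III passes them on to cytochrome c, and complex IV gives them to oxygen. Complexes I, III and IV pump protons out of the mitochondrial matrix, and complex V, the ATP synthase, lets them flow back to make ATP. Most subunits are encoded in the nucleus, but a few central ones of complexes I, III, IV and V are encoded by mitochondrial DNA, so that 2 genomes have to supply each of these enzymes.

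Total RNA was measured on Affymetrix mouse gene arrays in 3 groups of 3 biological replicates. All mice were CX3CR1 gfp+/-, that is, carried green fluorescent protein in place of 1 copy of the fractalkine receptor gene, so reporter and heterozygosity were shared by every group. T cell zone macrophages (TZM) came from lymph nodes and were sorted as GFP-high, MertK+, CD169-, CD11b+ cells. Microglia were brain cells sorted as GFP-high, CD11b+, CD45+. CD8a+ dendritic cells (DC), which take up dead cells and present their antigens to CD8 T cells, were sorted as CD64-, CD11c-high, MHCII-high, CD8a+; the labels give their source both as lymph node and, in the sorting protocol, as spleen. Age, sex and strain background of the mice, and whether animals were pooled, are not given in the sources used here, so p-values measure the spread between these samples. All values are log2 levels from robust multi-array averaging (RMA), on a scale that ran from 2.04 to 13.6, and a difference of 1 is a doubling. Levels of different genes are not compared with each other, since probe sets differ in brightness.

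The sorted cells carried the markers of their labels. All 10 TZM markers listed were at 6 or more in TZM, all 10 DC markers in DC and all 9 measured microglia markers in microglia, while the 6 neuronal and 5 astrocyte markers were below 6 in every group. The lists were shared in part. Of the TZM markers 8, all but Timd4 and Pla2g2d, were also at 6 or more in microglia, and 2 in DC. Of the microglia markers 7 were at 6 or more in TZM and 1 in DC. Of the DC markers 4 were at 6 or more in TZM and 3 in microglia. Among 6 neutrophil markers S100a8 and S100a9 were above 6 in TZM. S100a8 read 5.89, 9.28 and 7.32 in the 3 TZM arrays and S100a9 read 6.21, 9.39 and 7.89. TZM replicate 2, the highest for both, also lay above its group's mean in 64 of the 89 members, against 48.5% of all genes. DC replicate 1 and microglia replicate 3, with S100a8 and S100a9 below 6, did so in 61 members each. The shares of all genes there were 46.5% and 49.4%. Median deviations of members in these arrays were 0.13, 0.04 and 0.07, in the order named. The calls gained or lost without TZM replicate 2 are named with each complex. Cd79b, a B cell marker, was at 6 or more in all 3 groups, at 9.69, 8.27 and 9.86 in TZM and at means of 6.63 in DC and 7.85 in microglia. Of the other 4 measured B cell markers only Ms4a1 reached a mean of 6, in DC (7.11). Of 5 measured T cell markers only Cd3e did, in TZM (6.14), and of 3 monocyte markers only Ccr2, in TZM (6.57) and DC (7.06). Of 6 markers of stroma and endothelium, 3 did in TZM (Col1a1, Pecam1 and Cdh5), 1 in DC (Pecam1) and 2 in microglia (Col1a1 and Pecam1), and Cdh5 read 7.65 on average in TZM against 5.38 in DC and 5.24 in microglia. Of 5 measured oligodendrocyte markers Mbp was above 6 in every group and Cnp in DC (7.51) and microglia (6.96), while the 1 red cell marker measured was below 6 in all groups. Of 5 choroid plexus markers only Ttr was above 6, in microglia, at 12.15, 5.48 and 11.83. The mean over the 89 members in those same microglia arrays was 8.12, 8.09 and 8.24. The part of these marker levels in the results was not tested.

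Promoters of members from 4 complexes are printed. The first 5 belong to genes that moved together, being lower in microglia than in both other populations. The last belongs to Ndufv1, a complex I gene with no called difference. Each runs 5′ to 3′ over 300 bases, from 250 before to 50 after the annotated start, taken from RefSeq (GRCm38.p6). Capitals mark letters that match 1 of 5 motifs on either strand: NRF1 (GCGC, any letter, then TGCGC), ETS (CCGGAAG), YY1 (AAGATGG), SP (GGGCGG) and the estrogen-related receptor ERR (AAGGTCA).
Cox5a, chr9:57520982-57521281, plus strand: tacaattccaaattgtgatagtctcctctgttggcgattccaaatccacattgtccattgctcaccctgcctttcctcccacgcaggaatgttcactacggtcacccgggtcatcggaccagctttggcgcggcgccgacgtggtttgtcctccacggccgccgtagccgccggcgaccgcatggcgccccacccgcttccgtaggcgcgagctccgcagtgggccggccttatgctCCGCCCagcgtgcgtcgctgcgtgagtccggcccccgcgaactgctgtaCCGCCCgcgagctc
Ndufa6, chr15:82354242-82354541, minus strand: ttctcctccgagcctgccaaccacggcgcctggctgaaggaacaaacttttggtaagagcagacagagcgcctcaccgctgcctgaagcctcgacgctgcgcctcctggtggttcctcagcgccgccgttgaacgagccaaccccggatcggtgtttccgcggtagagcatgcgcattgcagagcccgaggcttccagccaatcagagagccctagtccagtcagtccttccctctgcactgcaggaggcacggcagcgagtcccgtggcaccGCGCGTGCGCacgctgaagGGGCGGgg
Ndufa3, chr7:3617123-3617422, plus strand: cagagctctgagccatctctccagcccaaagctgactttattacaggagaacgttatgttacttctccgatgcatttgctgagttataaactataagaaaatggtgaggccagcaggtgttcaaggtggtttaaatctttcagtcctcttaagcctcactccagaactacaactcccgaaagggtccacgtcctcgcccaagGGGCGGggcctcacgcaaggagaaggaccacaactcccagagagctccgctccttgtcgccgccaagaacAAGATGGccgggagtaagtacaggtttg
Uqcrh, chr4:116075021-116075320, minus strand: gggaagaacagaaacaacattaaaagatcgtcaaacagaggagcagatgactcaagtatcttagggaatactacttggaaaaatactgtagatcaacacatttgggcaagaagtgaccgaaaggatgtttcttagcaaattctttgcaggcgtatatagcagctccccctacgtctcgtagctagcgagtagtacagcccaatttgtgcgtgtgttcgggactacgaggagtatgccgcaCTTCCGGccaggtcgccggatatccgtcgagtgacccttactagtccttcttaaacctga
Atp5e, chr2:174464052-174464351, minus strand: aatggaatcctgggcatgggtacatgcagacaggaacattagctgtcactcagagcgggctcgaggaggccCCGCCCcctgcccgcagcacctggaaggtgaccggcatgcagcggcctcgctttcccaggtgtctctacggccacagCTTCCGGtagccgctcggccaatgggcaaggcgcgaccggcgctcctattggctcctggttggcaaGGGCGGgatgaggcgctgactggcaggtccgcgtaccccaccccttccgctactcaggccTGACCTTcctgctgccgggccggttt
Ndufv1, chr19:4012706-4013005, minus strand: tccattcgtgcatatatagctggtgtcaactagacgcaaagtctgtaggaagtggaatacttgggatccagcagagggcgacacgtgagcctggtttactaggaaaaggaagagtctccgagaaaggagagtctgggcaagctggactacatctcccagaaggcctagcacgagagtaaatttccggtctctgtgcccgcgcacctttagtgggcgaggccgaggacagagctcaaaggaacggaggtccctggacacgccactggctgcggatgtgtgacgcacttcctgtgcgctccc

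In these windows Cox5a held a pair of SP matches, Ndufa6 an NRF1 and an SP match, Ndufa3 a YY1 and an SP match, Uqcrh an ETS match, Atp5e ETS, SP and ERR matches, and Ndufv1 none. No matches shown overlapped each other. Among promoters not shown, that of Ndufs3 held ETS and SP matches and that of Ndufs7 a YY1 match, and neither gene was called in any comparison. A promoter was found for 73 of the 89 members. NRF1 letters stood in 17 of them (23.3%), against 4.78% of the 27025 promoters of the table, and ETS letters also in 17 (23.3%), against 9.12%. NRF1 and the ETS factor GABP are textbook regulators of respiratory genes. YY1 letters stood in 9 (12.3% against 6.48%), ERR letters in 7 (9.59% against 4.66%) and SP letters in 33 (45.2% against 35.9%). The members' promoters had a median GC content of 58.3%, against 52.7% over the table, and their part in these shares was not tested. NRF1 letters stood in 13 of 54 promoters of members lower in microglia than in DC (24.1%) and in 4 of 18 promoters of members with no call in that comparison (22.2%). For ETS letters the counts were the same, 13 of 54 and 4 of 18. SP letters stood in 22 of those 54 (40.7%) and 10 of those 18 (55.6%), ERR letters in 6 (11.1%) and 1 (5.56%), and YY1 letters in 7 (13%) and 2 (11.1%). These differences were not tested. A match is a string of letters and no evidence of binding.

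The main pattern was a low level in microglia across all 5 complexes. Averaged over the 89 members, the level was 8.76, 8.91 and 8.74 in the TZM arrays, 8.92, 8.87 and 8.84 in DC and 8.12, 8.09 and 8.24 in microglia. Every microglia array thus lay below every array of the other populations, and TZM and DC overlapped. Averages over all 19938 genes ran only from 5.41 to 5.45 in the arrays. RMA makes the arrays' distributions alike, so these averages could not have shown a shift of all genes. In bulk RNA, fewer cells that express a gene and less RNA per cell cannot be told apart.

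**Figure D1:**
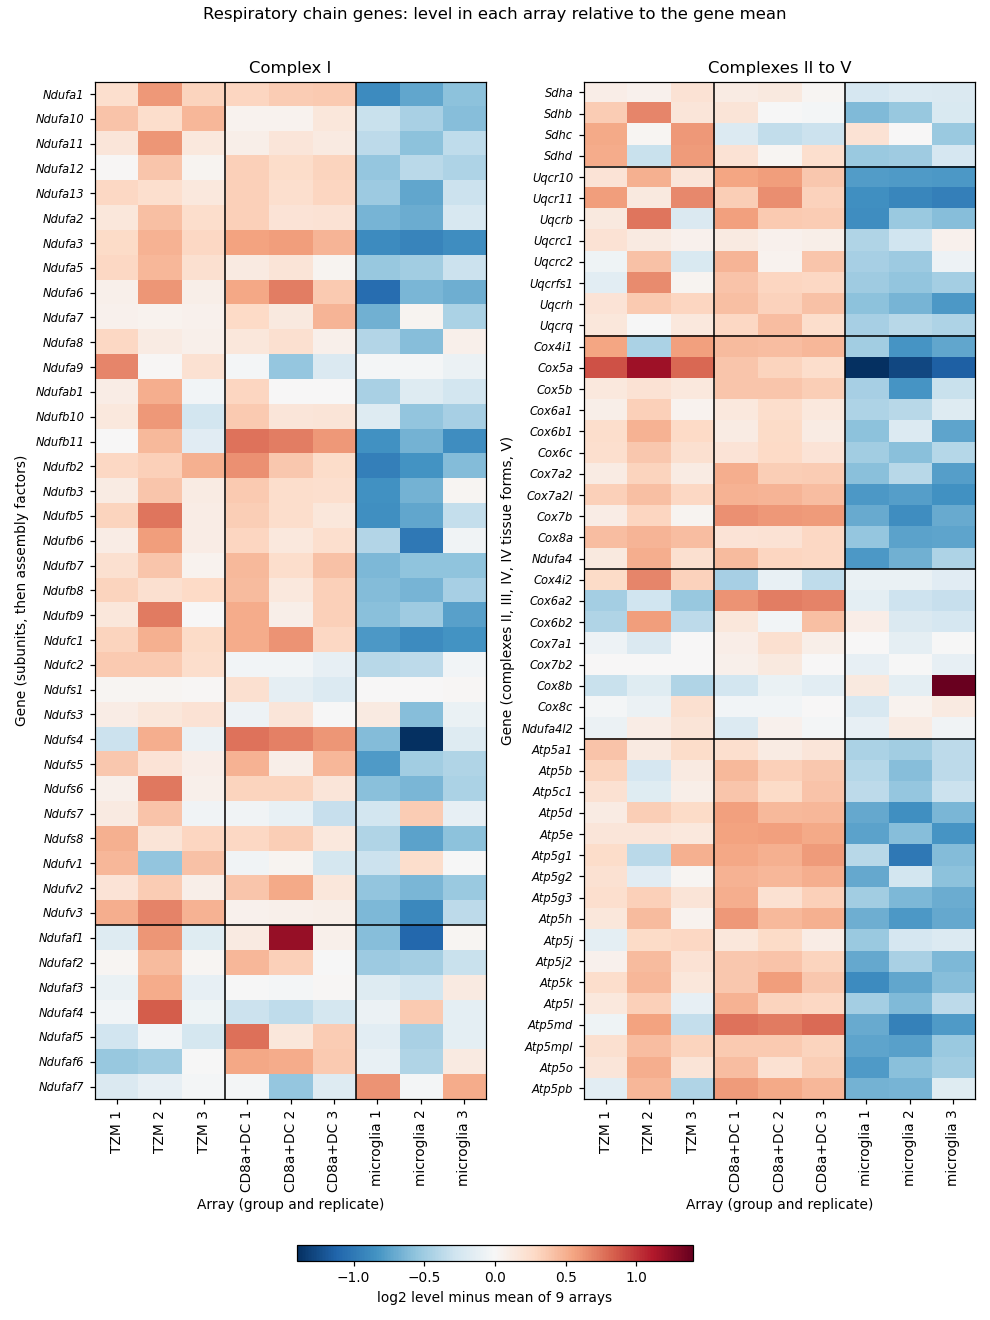
Log2 level of each of the 89 members in each of the 9 arrays, less the gene's mean over the 9 arrays; rows are genes grouped by complex, columns are arrays, and colours saturate at the ends of the scale. The microglia columns are blue for most genes of every complex, whereas the complex IV tissue forms, Ndufs1, Ndufs7 and Ndufv1 show no such block, and TZM replicate 2 differs from the other TZM arrays in both directions.

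Between microglia and DC, 65 of the 89 members were lower in microglia and 1 was higher, calling a gene at a Benjamini-Hochberg adjusted p under 0.05 in limma's test over all genes. Of all genes 13.1% were lower and 12% higher by that rule. Among the 7678 genes at 6 or more in at least 3 arrays, which 80 of the members were, these shares were 27.1% and 23.1%. With a difference of at least 1 asked for as well, 24 members were lower and 0 higher, against 6.01% and 5.15% of all genes. The median difference over members was -0.80 and over all genes 0.01. Bright genes in general were called more often, so the members were also set beside genes of like level. Below 6, 2 of 9 members were lower in microglia (22.2%), against 5.83% of 12978 genes, and 0 were higher. From 6 to 8, 5 of 15 members were lower (33.3%) and 1 higher, against 22.9% of 4945 genes lower. Of 45 members with a mean level from 8 to 10, 39 were lower in microglia (86.7%), against 33.7% of the 1699 genes in that range. Above 10 it was 19 of 20 members (95%), against 45.9% of 316 genes.

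Between TZM and microglia, 60 of the 89 members were higher in TZM and 0 lower, where 10% of all genes were higher and 9.39% lower. With a difference of at least 1, the counts were 13 and 0, against 4.25% and 3.4% of all genes. Among genes at 6 or more in at least 3 arrays, 21.3% were higher and 18.5% lower. The median difference was 0.75 over members and 0.01 over all genes. This comparison shares its microglia arrays with the previous one, so both counts rest in part on the same 3 samples. Without TZM replicate 2 the count of members higher in TZM was 59.

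Between TZM and DC, 4 members were higher in TZM and 8 lower, where 9.83% of all genes were higher and 10.4% lower. The members' shares, 4.49% and 8.99%, were thus no larger than those of all genes, or than the 19.6% and 20.9% among genes at 6 or more in at least 3 arrays. The median difference was -0.07, and only Cox6a2 differed by at least 1, a rule that 4.71% of all genes passed upward and 4.03% downward. Without TZM replicate 2 the counts were 6 higher and 15 lower, with 12 calls gained and 3 lost. Leaving out another TZM or DC array lost 4 to 6 calls and gained 0 to 2. That no more members were called does not show that the populations are alike, since the fit's standard errors ran from 0.06 to 0.39 over the members.

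**Figure D2:**
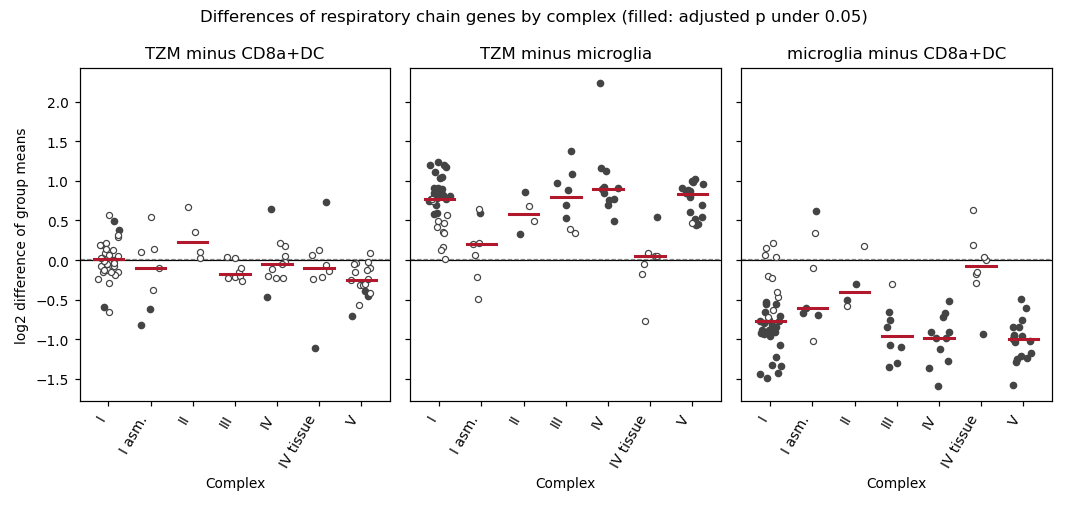
Log2 difference of group means for each member (points, filled where the adjusted p was under 0.05), by complex and comparison, with the median of each set as a red bar, assembly factors of complex I and tissue forms of complex IV shown apart, and the median over all genes as a dashed line. Medians lie near 0 between TZM and DC, and between 0.59 and 0.90 for the sets of subunits of the 5 complexes between TZM and microglia.

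Without any model, the 3 microglia arrays lay below all 6 other arrays in 62 members, where 8.86% of all genes showed this, and above them in 0 members, against 9.67% of all genes. These 62 were 26 of 41 in complex I, 2 of 4 in complex II, 6 of 8 in complex III, 12 of 19 in complex IV and 16 of 17 in complex V. The 3 DC arrays lay above the other 6 in 20 members, 8 of them in complex V, against 11% of all genes. The 3 TZM arrays lay above the other 6 in 8 members (Ndufa5, Ndufa9, Ndufa10, Ndufc2, Ndufv3, Cox4i2, Cox5a and Cox8a), against 7.01% of all genes.

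Complex I is the largest enzyme of the chain, with a small catalytic core and many accessory subunits around it. Of its 34 subunits measured, 24 were lower in microglia than in DC and 23 were higher in TZM than in microglia. The median differences were -0.77 and 0.77. Accessory subunits made up most of these calls: 22 of 28 were lower in microglia than in DC, with a median of -0.79. Of the 6 nuclear core subunits measured, 2 were lower, with a median of -0.09. The core subunits averaged 7.85 in DC and the accessory ones 9.05, and bright genes in general were called more often. Whether core and accessory subunits differ was not tested.

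Ndufa3, a small accessory subunit of the membrane arm, had the largest F statistic of complex I over the 3 groups. Its level was 9.90, 10.12 and 9.93 in TZM, 10.19, 10.22 and 10.11 in DC and 8.75, 8.70 and 8.77 in microglia. The microglia arrays lay far below the rest, and the ranges of TZM and DC just overlapped. Microglia were lower than DC by a difference of -1.43 (SE 0.07, limma adjusted p = 1.4e-06), and TZM were higher than microglia by 1.24 (SE 0.07, adjusted p = 6e-06).

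Ndufb11, an accessory subunit of the membrane arm encoded on the X chromosome, read 8.81, 8.99 and 8.78 in microglia, 9.66, 10.11 and 9.50 in TZM and 10.42, 10.37 and 10.26 in DC. The populations fell into 3 separate ranges, with DC highest. The difference between microglia and DC was -1.49 (SE 0.15, limma adjusted p = 9.2e-05) and that between TZM and DC was -0.60 (SE 0.15, adjusted p = 0.02). The TZM call against DC was lost with TZM replicate 1 or 3 left out, and with DC replicate 1 or 2 left out.

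Ndufs4, an accessory subunit whose loss in humans causes Leigh syndrome, was uneven among arrays. It read 8.57, 7.75 and 8.99 in microglia, 8.87, 9.68 and 9.09 in TZM and 9.93, 9.88 and 9.80 in DC. Microglia and TZM overlapped. It was lower in microglia than in DC by a difference of -1.43 (SE 0.31, limma adjusted p = 0.0088), while its difference of 0.77 between TZM and microglia (SE 0.31) had an adjusted p of 0.13. Without microglia replicate 3 the latter was 1.05 (limma adjusted p = 0.048). Ndufc1 (-1.32), Ndufa6 (-1.34), Ndufb2 (-1.22) and Ndufa1 (-1.07) were the other accessory subunits at least 1 lower in microglia than in DC. All of these genes were also at least 1 higher in TZM than in microglia, by 1.20, 1.05, 1.17 and 1.12 in the same order. The dimmer probe set of Ndufc1 gave smaller steps, of -0.81 from DC and 0.59 for TZM minus microglia.

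Ndufv3 and Ndufc2 were the complex I members higher in TZM than in DC. Ndufv3, an accessory subunit of the NADH-oxidising arm, read 8.82, 8.99 and 8.79 in TZM, 8.36, 8.38 and 8.39 in DC and 7.68, 7.40 and 7.94 in microglia. TZM were highest in every array, 0.49 above DC (SE 0.13, limma adjusted p = 0.025) and 1.20 above microglia (SE 0.13, adjusted p = 0.00022). Ndufc2, of the membrane arm, was 0.39 higher in TZM than in DC (SE 0.10, adjusted p = 0.025), and its microglia array 3, at 10.42, reached the DC arrays at 10.42, 10.42 and 10.34. Both calls against DC were lost without TZM replicate 2, where the differences were 0.43 and 0.36 at adjusted p of 0.072 and 0.065, and also without TZM replicate 1 or any 1 of the DC arrays. In all, the call for Ndufv3 was lost under 6 of 18 alternative settings and that for Ndufc2 under 7.

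Without TZM replicate 2, a further 4 complex I members were called between TZM and DC. Ndufa9 (0.71, limma adjusted p = 0.026) and Ndufa10 (0.35, adjusted p = 0.035) were then higher in TZM, and Ndufa3 (-0.26, adjusted p = 0.024) and Ndufa12 (-0.28, adjusted p = 0.027) lower. Against microglia, Ndufb3 (0.61, adjusted p = 0.12) and the assembly factor Ndufaf2 (0.46, adjusted p = 0.056) were then no longer called higher in TZM. Between microglia and DC, where that array enters the fit only through the spread, Ndufab1 (-0.40, adjusted p = 0.032), Ndufb6 (-0.72, adjusted p = 0.041) and Ndufb10 (-0.64, adjusted p = 0.010) became called lower in microglia and the call for Ndufaf7 was lost (adjusted p = 0.053).

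The core subunits divided. Ndufs8, which carries iron-sulfur clusters near the ubiquinone site, read 7.88, 7.55 and 7.73 in microglia, 8.80, 8.48 and 8.60 in TZM and 8.59, 8.65 and 8.45 in DC. Ndufv2, an iron-sulfur subunit of the NADH-oxidising arm, read 7.53, 7.45 and 7.57 in microglia, 8.27, 8.44 and 8.17 in TZM and 8.47, 8.62 and 8.24 in DC. Both were lower in microglia than in every other array, by differences from DC of -0.85 (SE 0.11, limma adjusted p = 0.00054) and -0.93 (SE 0.11, adjusted p = 0.00025).

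Ndufs1, Ndufs3, Ndufs7 and Ndufv1 were not called in any comparison. Ndufs1, the largest iron-sulfur subunit, read 6.95, 6.94 and 6.93 in TZM, 7.14, 6.79 and 6.73 in DC and 6.92, 6.92 and 6.93 in microglia, a difference of 0.04 between microglia and DC (SE 0.10). It had the smallest F statistic of complex I. Ndufv1, which binds NADH and its flavin, read 7.85, 6.83 and 7.79 in TZM, with replicate 2 far below its group, 7.34, 7.42 and 7.13 in DC and 7.08, 7.63 and 7.37 in microglia. All 3 groups overlapped. Ndufs3 differed by -0.22 between microglia and DC (SE 0.16) and Ndufs7 by 0.15 (SE 0.17). Among accessory subunits, Ndufa9 was likewise not called, with a microglia minus DC difference of 0.21 (SE 0.18), whereas Ndufb8 was lower in microglia than in DC, by -0.88 (SE 0.09, adjusted p = 9.4e-05).

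Of the 7 assembly factors, 3 were lower in microglia than in DC (42.9%) and 1 higher (14.3%). Of all genes 13.1% were lower and 12% higher, and of genes at 6 or more in at least 3 arrays 27.1% and 23.1%. The lower ones were Ndufaf2, Ndufaf5 and Ndufaf6, by -0.69, -0.67 and -0.61. Ndufaf7, a methyltransferase that acts on a core subunit, was the single member higher in microglia than in DC, at 6.75, 6.10 and 6.65 against 6.10, 5.59 and 5.95. Its difference was 0.62 (SE 0.19, limma adjusted p = 0.04), the ranges met, and the call was lost under 10 of 18 alternative settings. Ndufaf5 and Ndufaf6 were lower in TZM than in DC, by -0.62 and -0.82, and Ndufaf6 lay below 6 in every array. That was 28.6% of the assembly factors, against 10.4% of all genes and 20.9% of genes at 6 or more in at least 3 arrays. Ndufaf1 differed by -1.03 between microglia and DC, but with an SE of 0.39 it was not called (adjusted p = 0.10).

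Complex II, succinate dehydrogenase, is the only complex here encoded wholly in the nucleus. Sdha, its flavoprotein, read 8.93, 8.90 and 9.04 in TZM, 8.95, 8.97 and 8.87 in DC and 8.61, 8.64 and 8.64 in microglia. The microglia arrays were lowest, but by a small step: -0.30 from DC (SE 0.06, limma adjusted p = 0.0056) and 0.33 between TZM and microglia (SE 0.06, adjusted p = 0.0052). The call against DC was lost under quantile normalization, at an adjusted p of 0.068. Sdhb, the iron-sulfur subunit, was 0.86 higher in TZM than in microglia (SE 0.15, adjusted p = 0.0042) and lower in microglia than in DC by -0.51 (SE 0.15, adjusted p = 0.04), the second call being lost under 9 of 18 settings.

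Of the membrane anchors of complex II, Sdhc read 9.09, 8.59 and 9.17 in TZM, 8.37, 8.22 and 8.27 in DC and 8.76, 8.57 and 8.05 in microglia, so that microglia overlapped both other groups. Sdhd read 7.92, 7.09 and 7.99 in TZM, 7.60, 7.43 and 7.64 in DC and 6.88, 6.90 and 7.16 in microglia. Neither was called with all arrays. In both genes TZM replicate 2 was low, and without it both were higher in TZM than in DC (by 0.84 and 0.40) and than in microglia (by 0.67 and 0.97), and Sdhd was lower in microglia than in DC (by -0.58, adjusted p = 0.0028).

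Complex III passes electrons from ubiquinol to cytochrome c. Of its 8 members, 7 were lower in microglia than in DC, 4 of them by at least 1, with a median of -0.96. In TZM 6 were higher than in microglia, with a median of 0.79, which became 0.61 without TZM replicate 2. With all arrays no complex III member was called between TZM and DC. Without TZM replicate 2, Uqcr10 (-0.32, limma adjusted p = 0.020) and Uqcrfs1 (-0.39, adjusted p = 0.010) were lower in TZM. The largest differences from microglia were those of small subunits. Uqcr11 read 9.39, 8.94 and 9.48 in TZM, 9.15, 9.45 and 9.12 in DC and 7.95, 7.89 and 7.84 in microglia. TZM and DC covered the same range, and microglia lay apart by 1.37 from TZM (SE 0.15, limma adjusted p = 0.00024) and by -1.35 from DC (SE 0.15, adjusted p = 0.00017).

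Uqcrh, the hinge protein at cytochrome c1, had the largest F statistic of complex III. It read 10.90, 11.07 and 11.01 in TZM, 11.13, 11.03 and 11.12 in DC and 10.13, 10.05 and 9.90 in microglia, a difference of -1.07 between microglia and DC (SE 0.08, limma adjusted p = 1.3e-05). Uqcr10 (-1.30) and Uqcrb (-1.09) were also at least 1 lower, and Uqcrq (-0.76) was lower. Uqcrfs1, the Rieske iron-sulfur protein, was lower in microglia than in DC by -0.84 (SE 0.18, adjusted p = 0.0081). Of the large core proteins, Uqcrc2 was lower in microglia than in DC by -0.66 (SE 0.19, adjusted p = 0.036), a call lost under 8 of 18 settings. Uqcrc1 was not called with all arrays, at 7.67, 7.59 and 7.52 in TZM, 7.59, 7.52 and 7.54 in DC and 7.04, 7.18 and 7.52 in microglia. Without microglia replicate 3 it was lower in microglia than in DC (-0.44, limma adjusted p = 0.0045). It was then also higher in TZM than in microglia (0.48, limma adjusted p = 0.0041). Cyc1, the cytochrome c1 gene that the rule leaves out, was lower in microglia than in DC by -0.35 (SE 0.09, adjusted p = 0.026).

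In complex IV, cytochrome c oxidase, the calls differed by kind of subunit. All 11 of its general subunits were higher in TZM than in microglia and lower in microglia than in DC, with medians of 0.90 and -0.98. Of the 8 tissue or condition forms, only Cox4i2 was higher in TZM than in microglia and only Cox6a2 was lower in microglia than in DC. Only 1 of these 8, Cox6a2, was at 6 or more in at least 3 arrays, as all 11 general subunits were. Genes near background can show little of a step, so these calls cannot show whether the kinds differ.

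Cox5a, a nuclear subunit on the matrix side, had the largest difference of all 89 members in both comparisons with microglia. It read 10.46, 10.77 and 10.39 in TZM, 9.97, 9.89 and 9.82 in DC and 8.17, 8.30 and 8.44 in microglia. The 3 populations did not overlap, with TZM at the top. TZM were 4.72-fold higher than microglia (log2 difference 2.24, SE 0.11, limma adjusted p = 2.6e-06) and 1.56-fold higher than DC (0.65, SE 0.11, adjusted p = 0.0034), and DC were 3.01-fold higher than microglia (adjusted p = 1.2e-05). These calls held under all 18 alternative settings. Over the 9 arrays, the genes outside the rule whose levels followed Cox5a most closely were Il12rb2, Psmb10 and S100a6, with Pearson correlations of 0.996, 0.993 and 0.993. These describe arrays that fall into 3 groups.

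Cox7a2l, a relative of Cox7a2 that joins complexes III and IV into supercomplexes, had the largest F statistic of all complex IV genes. It read 10.60, 10.69 and 10.56 in TZM, 10.76, 10.74 and 10.70 in DC and 9.46, 9.50 and 9.42 in microglia. The spread within each group was small beside the step to microglia, which was 1.16 from TZM (SE 0.06, limma adjusted p = 2.5e-06) and -1.27 from DC (SE 0.06, adjusted p = 8.1e-07). The dimmer probe set of this gene gave smaller steps, of 0.73 and -0.88. Cox7b, a small subunit encoded on the X chromosome, fell into 3 ranges with DC on top: 11.47, 11.44 and 11.43 in DC, 10.93, 11.13 and 10.87 in TZM and 10.12, 9.97 and 10.13 in microglia. It was lower in TZM than in DC by -0.46 (SE 0.08, adjusted p = 0.0037).

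Cox8a had the reverse order at the top, with 10.53, 10.57 and 10.54 in TZM, 10.29, 10.30 and 10.39 in DC and 9.56, 9.35 and 9.36 in microglia. Its TZM and DC arrays did not overlap, but the difference of 0.22 (SE 0.07) had a limma adjusted p of 0.067. Cox4i1, the general form of the regulatory subunit 4, shows what TZM replicate 2 did to single genes. It read 11.03, 10.04 and 11.05 in TZM, 10.93, 10.92 and 10.95 in DC and 10.00, 9.66 and 9.76 in microglia, so that replicate 2 alone lay next to microglia. Its difference of 0.90 between TZM and microglia (SE 0.25, adjusted p = 0.035) was called with all arrays and lost under 10 of 18 settings. The remaining general subunits were lower in microglia than in DC by differences from -0.99 (Cox7a2) to -0.52 (Cox6a1), with Ndufa4 at -0.98, Cox5b at -0.91, Cox6c at -0.71 and Cox6b1 at -0.67.

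Cox6a2, the heart and muscle form of subunit 6a, was set apart by DC. It read 7.32, 7.41 and 7.38 in DC, 6.22, 6.42 and 6.16 in TZM and 6.55, 6.40 and 6.37 in microglia. DC were above every other array, 2.16-fold above TZM (log2 difference of TZM minus DC -1.11, SE 0.08, limma adjusted p = 2.5e-05) and 1.91-fold above microglia (adjusted p = 5.3e-05). TZM and microglia overlapped (-0.18, SE 0.08, adjusted p = 0.21). The general form, Cox6a1, did not follow this order: it read 11.58, 11.69 and 11.59 in DC, 11.52, 11.77 and 11.49 in TZM and 11.00, 11.05 and 11.26 in microglia.

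Cox4i2, a form of subunit 4 known from lung and low oxygen, lay below 6 in every array. It read 5.02, 5.43 and 5.08 in TZM, 4.28, 4.64 and 4.40 in DC and 4.66, 4.66 and 4.59 in microglia. TZM were above both, by 0.73 over DC (SE 0.13, limma adjusted p = 0.0033) and 0.54 over microglia (SE 0.13, adjusted p = 0.017), at levels that no detection call separates from background. Cox8b read 4.82, 4.55 and 6.07 in microglia, with replicate 3 apart, and from 4.26 to 4.58 elsewhere, and was not called. Cox6b2, Cox7a1, Cox7b2, Cox8c and Ndufa4l2 were not called in any comparison with all arrays and lay below 6 in every array; without TZM replicate 2, Cox6b2 was lower in TZM than in DC (-0.57, limma adjusted p = 0.033).

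In complex V, the enzyme that makes ATP, all 17 members were lower in microglia than in DC, 9 by at least 1, with a median of -1.0 and a range from -1.57 (Atp5md) to -0.49 (Atp5j). In TZM 16 were higher than in microglia, with a median of 0.83; the exception, Atp5pb of the peripheral stalk, had a difference of 0.46 (SE 0.22, limma adjusted p = 0.21). Between TZM and DC 0 were higher and 3 lower (Atp5e, Atp5g2 and Atp5md), with a median of -0.26. The 3 made up 17.6% of the complex, against 10.4% of all genes and 20.9% of genes at 6 or more in at least 3 arrays. Without TZM replicate 2, Atp5d (-0.31, adjusted p = 0.049), Atp5h (-0.41, adjusted p = 0.0066) and Atp5pb (-0.82, adjusted p = 0.0086) were also lower in TZM than in DC by limma's test, and Atp5j was no longer called higher in TZM than in microglia (0.39, adjusted p = 0.12). Of the 17, only Atp5a1 had a higher mean in TZM than in DC, by 0.09 (SE 0.08, not called).

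The catalytic head of the enzyme is built from alpha and beta subunits around a gamma shaft. Atp5b, the beta subunit, read 10.30, 9.75 and 10.12 in TZM, 10.44, 10.32 and 10.36 in DC and 9.59, 9.39 and 9.62 in microglia. The microglia arrays were lowest, by -0.84 from DC (SE 0.13, limma adjusted p = 0.0016) and by 0.52 from TZM (SE 0.13, adjusted p = 0.026). Atp5a1, the alpha subunit, and Atp5c1, the gamma subunit, were lower in microglia than in DC by -0.61 and -0.75. Atp5e and Atp5d, the epsilon and delta subunits of the shaft, had larger differences from DC, of -1.28 and -1.24.

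Atp5e had the largest F statistic of complex V, with 11.28, 11.28 and 11.26 in TZM, 11.67, 11.68 and 11.64 in DC and 10.36, 10.51 and 10.28 in microglia. The 3 groups were separate and DC highest, by -0.39 for TZM minus DC (SE 0.07, limma adjusted p = 0.0031). This call held under all 18 settings. Atp5md, a small membrane subunit, read 11.05, 11.02 and 11.08 in DC, 10.23, 10.85 and 9.96 in TZM and 9.59, 9.34 and 9.50 in microglia, again in 3 separate ranges. It was 2.97-fold lower in microglia than in DC (adjusted p = 0.00041), whereas its difference of -0.70 between TZM and DC (SE 0.20, adjusted p = 0.037) was lost under 11 of 18 settings. By likeness over the 9 arrays, Rpl7, Arhgap15 and Snrpe followed Atp5md most closely (Pearson correlations 0.989, 0.988 and 0.985), and Mrpl57, Eif3k and Churc1 followed Ndufb11 (0.992, 0.991 and 0.989).

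The ring of c subunits in the membrane is encoded by Atp5g1, Atp5g2 and Atp5g3, which give the same mature protein. Atp5g1 read 9.16, 8.53 and 9.41 in TZM, 9.45, 9.41 and 9.50 in DC and 8.52, 7.91 and 8.30 in microglia. Atp5g2 read 10.57, 10.20 and 10.39 in TZM, 10.85, 10.82 and 10.87 in DC and 9.64, 10.10 and 9.78 in microglia. Atp5g3 read 9.95, 10.04 and 9.89 in TZM, 10.22, 9.93 and 10.05 in DC and 9.22, 9.08 and 9.02 in microglia. All 3 genes were lower in microglia than in DC, by -1.21, -1.0 and -0.96. Atp5g2 was also lower in TZM than in DC, by -0.46 (SE 0.13, limma adjusted p = 0.039), a call lost under 9 of 18 alternative settings, among them the fit without TZM replicate 2 (-0.36, adjusted p = 0.10).

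**Figure D3:**
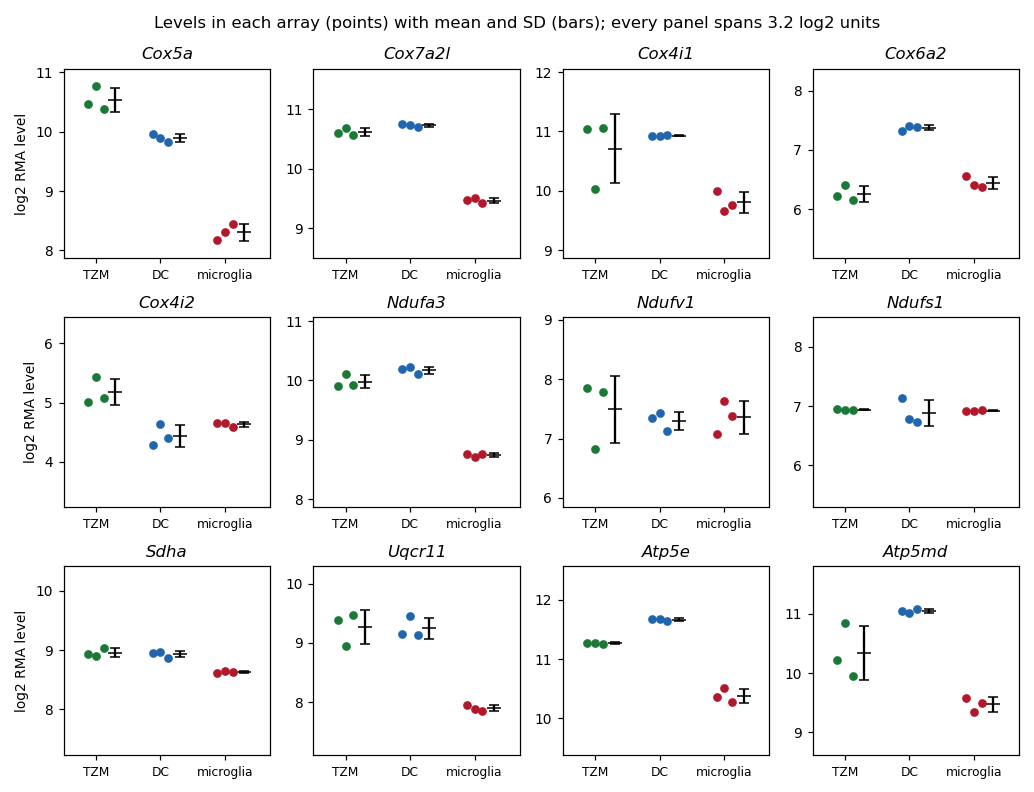
Log2 RMA levels of 12 members in TZM, DC and microglia; points are single arrays, bars the mean and SD of 3 arrays, and the axis span is the same in every panel. Cox5a, Cox7a2l, Ndufa3, Uqcr11, Atp5e and Atp5md step down in microglia, Cox6a2 is high in DC only, Ndufs1 and Ndufv1 overlap in all groups, and TZM replicate 2 of Cox4i1 sits beside microglia.

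For the subunits encoded by mitochondrial DNA no such step was called. Of these genes, COX2 of complex IV and ND3 of complex I were measured by probe sets with a single symbol. COX2 read 12.25, 12.21 and 11.77 in TZM, 12.18, 12.17 and 12.15 in DC and 12.37, 12.18 and 12.26 in microglia. ND3 read 12.16, 12.23 and 11.87 in TZM, 12.12, 12.11 and 12.07 in DC and 12.24, 12.16 and 12.23 in microglia. Neither was called in any comparison, and the differences between microglia and DC were 0.10 (SE 0.12) and 0.11 (SE 0.09). These levels lie near the top of the array's scale, whose highest value was 13.6.

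Other genes of the pathway were counted by the same rule. Mitochondrial ribosomal proteins, which make the mitochondrially encoded subunits, were lower in microglia than in DC in 39 of 77 genes and higher in 1, with a median of -0.53. In TZM 30 were higher than in microglia and 0 lower. The mobile carrier cytochrome c (Cycs) read 10.50, 10.26 and 10.35 in DC, 9.14, 9.51 and 9.01 in TZM and 8.59, 8.02 and 8.68 in microglia. Its order was DC, TZM, microglia, with no overlap and steps of -1.15 for TZM minus DC (SE 0.19, limma adjusted p = 0.0027) and 0.79 for TZM minus microglia (SE 0.19, adjusted p = 0.02).

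Gpd2, the mitochondrial glycerol phosphate dehydrogenase that feeds electrons to ubiquinone, had the largest step of the carriers and other ubiquinone reductases. It read 9.33, 9.56 and 9.21 in DC, 7.25, 7.79 and 7.11 in TZM and 5.30, 5.26 and 5.47 in microglia. Microglia were lower than DC by a difference of -4.02 (SE 0.17, limma adjusted p = 5.8e-07), with TZM between them, 2.04 above microglia and -1.99 from DC. Of the 8 genes of this list, 3 were lower in microglia than in DC (Gpd2, Cycs and Etfa) and 0 higher.

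Assembly factors outside the rule were counted by complex, beside 13.1% of all genes, and 27.1% of genes at 6 or more in at least 3 arrays, that were lower in microglia than in DC. For complex IV 5 of 16 (31.2%) were lower in microglia than in DC and 0 higher, led by Coa5 (-1.42), the copper chaperone Cox17 (-1.33) and Cox14 (-0.97). For complex II the counts were 2 of 4 (Sdhaf1 and Sdhaf2), for complex III 2 lower and 1 higher of 6, and for complex I 1 of 9. Atpif1, the inhibitor of ATP synthase, was apart in DC, at 11.81, 11.78 and 11.88, against 10.83, 10.96 and 10.85 in TZM and 10.65, 10.69 and 10.86 in microglia. It was lower in TZM than in DC by -0.94 (SE 0.07, limma adjusted p = 3e-05). Of 8 genes for the shape of the inner membrane, 4 (50%) were lower in microglia than in DC, among them the prohibitin Phb2 (-1.10). Of 9 carriers and channels for exchange across the membranes, 3 were lower (33.3%), among them the phosphate carrier Slc25a3 (-0.82) and the ADP/ATP carrier Slc25a4 (-0.70). Of 12 genes for ubiquinone synthesis 1 was lower (8.33%).

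In the lists of regulatory genes more members were higher in microglia than in DC than were lower, where 12% of all genes, and 23.1% of genes at 6 or more in at least 3 arrays, were higher. Of 15 genes for the upkeep and transcription of mitochondrial DNA, 6 were higher in microglia than in DC (40%) and 1 was lower, with a median of 0.27. Lrpprc, which stabilises mitochondrial mRNA, was 0.79 higher (SE 0.09, limma adjusted p = 0.00026), whereas its partner Slirp was lower by -1.18 (SE 0.18, adjusted p = 0.0015). Of 12 nuclear regulators of respiratory genes, 4 were higher in microglia than in DC (33.3%) and 0 lower. Gabpb1, a subunit of the ETS factor GABP, read 6.89, 6.87 and 7.11 in microglia, 5.93, 6.59 and 5.96 in TZM and 6.12, 5.94 and 5.78 in DC. It was above both in every microglia array, by 1.01 over DC (SE 0.18, adjusted p = 0.0032). Nfe2l2 (0.49), Epas1 (0.45) and Pprc1 (0.36) were the others, Epas1 at levels below 6.

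Between TZM and microglia the regulators were called in both directions. Esrrg, an estrogen-related receptor, read 6.63, 6.25 and 6.33 in TZM, 4.92, 5.12 and 5.43 in DC and 5.26, 5.26 and 5.03 in microglia, and was higher in TZM than in either, by 1.25 over DC and 1.22 over microglia (limma adjusted p = 0.00041 and 0.00052). Hif1a and the coactivator Ppargc1b were also higher in TZM than in both, Ppargc1b at levels below 6. Gabpb1 (-0.80), Nrf1 (-0.67) and Pprc1 (-0.47) were lower in TZM than in microglia.

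The pathway lists were also counted between TZM and DC, where 9.83% of all genes were higher in TZM and 10.4% lower (19.6% and 20.9% of genes at 6 or more). Of 77 mitochondrial ribosomal proteins 2 were higher in TZM and 9 lower, with a median of -0.10. Of 12 nuclear regulators 5 were higher (41.7%) and 0 lower, of 8 carriers and other ubiquinone reductases 1 was higher and 2 lower (25%), and of 15 genes for mitochondrial DNA 2 were higher and 0 lower. Of 12 genes for ubiquinone synthesis 3 were higher (25%) and 1 lower, the lower being Coq2 (-1.02, SE 0.10, limma adjusted p = 0.00014), which attaches the side chain of ubiquinone. Of 16 complex IV assembly factors 2 were higher (Coa6 and Sco1) and 1 lower (Cox17), and of 9 genes for exchange across the membranes 2 were higher and 1 lower. For the assembly factors of complexes I and II and for cristae organisation the counts were 0 in both directions. Between TZM and microglia 10% of all genes were higher in TZM and 9.39% lower (21.3% and 18.5% of genes at 6 or more). There cristae organisation had 4 of 8 genes higher in TZM, complex IV assembly 5 of 16 and exchange 3 of 9. Complex II assembly had 2 of 4, complex III assembly 1 of 6 (16.7%) and carriers and other ubiquinone reductases 3 of 8. In each of these lists 0 were lower. Ubiquinone synthesis had 2 higher and 1 lower of 12, nuclear regulators 3 and 3 of 12, and the upkeep and transcription of mitochondrial DNA 1 higher and 2 lower of 15.

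Cytosolic ribosomal proteins, another set of abundant genes outside mitochondria, moved in the same direction as the members. Of 61, 51 were lower in microglia than in DC (83.6%) and 0 higher, with a median of -0.67, and 39 were higher in TZM than in microglia. Between TZM and DC 30 of them were lower in TZM and 0 higher, where 8 of the 89 members were. Whether what moves these genes also moves the respiratory chain genes was not tested.

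**Figure D4:**
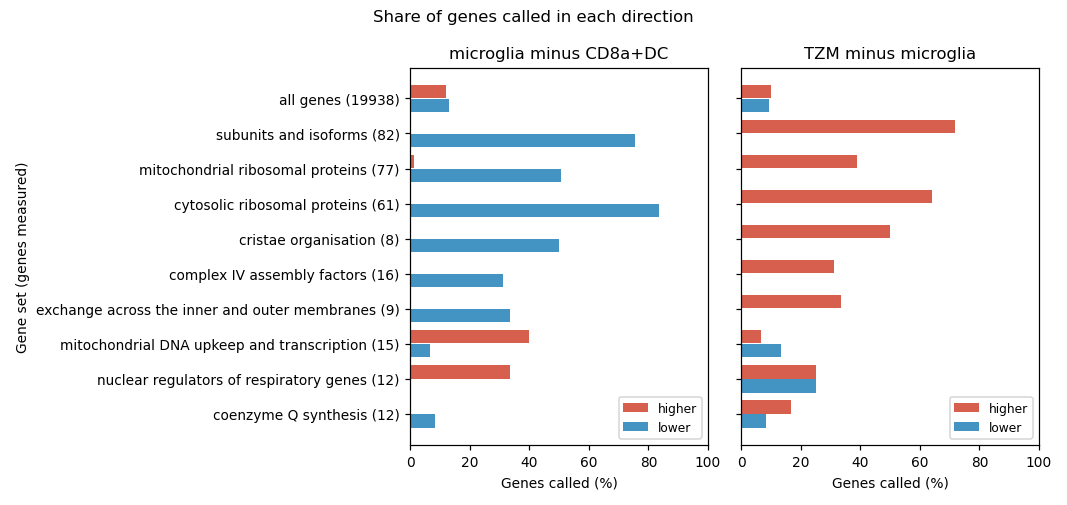
Share of genes called higher (red) and lower (blue) in each gene set, in percent, with the number measured in brackets, for microglia minus DC and TZM minus microglia. Subunits and both kinds of ribosomal proteins have long blue bars and no or almost no red in microglia minus DC, whereas mitochondrial DNA upkeep and nuclear regulators have mostly red.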

How the data were processed

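The deposited values are log2 levels from total RNA on Affymetrix mouse gene arrays; the authors made them with Affymetrix Expression Console 1.3.1 and RMA, per the submitters' processing notes; this step subtracts background, makes the arrays' distributions alike and combines the probes of a probe set. The table held 35556 probe sets for 9 arrays, 21789 of them with 1 gene symbol in the platform annotation, 1621 with several and 12146 with none. The brightest single-symbol probe set was kept per gene, which left 19938 genes. Of the 89 members, all matched RefSeq (GRCm38.p6) by Entrez identifier. Of 25 other probe sets, held by 17 members, those of called members had the same sign as the probe set used in every comparison. Sizes were not always alike. Between microglia and DC the other probe sets of Cox7a2l (-0.88 against -1.27), Ndufc1 (-0.81 against -1.32) and Atp5pb (-0.47 against -1.03) gave smaller differences. These were below 1 in size. The other probe sets of Cox6c (-1.13 against -0.71) and Cox5b (-1.04 against -0.91) gave larger ones. No detection call was used.

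A linear model of the group over all 9 arrays was fitted in R 4.3.3 by lmFit and eBayes of limma 3.58.1, after it had been tested on simulated data. Standard errors (SE) come from this model, and its p-values were adjusted over all genes. Median SD within groups was 0.17 in TZM, 0.08 in DC and 0.15 in microglia over members. The number of arrays limits the precision. Named genes were core subunits and those with tissue forms, the largest called changes, the largest and smallest F statistic per complex, the closest genes by Pearson correlation for 3 members, and up to 3 called genes per list. Members and lists were chosen with earlier results of these data known. Alternatives covered probe set choice, level filter, normalization, samples in the fit, variance model, array weights, the replicate block, each array left out and the call rule.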

Additional observations from a re-analysis of the deposited data

How the results depend on the processing

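Over 18 alternative settings no called member changed sign in any comparison. Of the 60 members called between TZM and microglia 48 were called in every setting, and of the 66 between microglia and DC 56 were. Of the 12 between TZM and DC 6 were (Atp5e, Cox4i2, Cox5a, Cox6a2, Cox7b and Ndufaf6). Members higher in TZM than in microglia numbered 60, and 51 to 59 with each array left out. Members lower in microglia than in DC numbered 65, and 59 to 69 with each array left out. Without microglia replicate 3, Ndufa8, Ndufb6, Ndufc2 and Uqcrc1 became called lower in microglia than in DC, and 2 calls were lost. Between TZM and microglia, Ndufa8, Ndufb6, Ndufs4 and Uqcrc1 then became called higher in TZM, and 7 calls were lost. Members lower in TZM than in microglia numbered 0, and 0 to 1 with each array left out, the 1 being Ndufaf7 without microglia replicate 2. Between TZM and DC the 4 higher members became 2 to 7 and the 8 lower members 4 to 15 with each array left out, the 15 without TZM replicate 2. The single member higher in microglia than in DC, Ndufaf7, became 0 to 1 with each array left out, and 0 with every probe set tested, median centring, only the compared groups, or without assembly factors. With at least 1 on the log2 scale asked for, the counts were 0 higher and 1 lower in TZM than in DC, 13 and 0 in TZM against microglia, and 0 and 24 in microglia against DC. With the replicate number as a block the counts in the same order were 3, 7, 59, 0, 1 and 63; same-numbered arrays correlated from -0.15 to 0.13 in their deviations, so the numbers were not taken as pairs. Some medians of complexes moved beyond the spread: complex III between TZM and microglia to 0.61 without TZM replicate 2, and complex IV with the level filter to 0.87 between TZM and microglia and to -0.96 between microglia and DC, and to -0.91 where a gene's probe sets were averaged. The level filter leaves each gene's difference as it was and kept 12 of the 19 complex IV members, all 11 general subunits and 1 tissue form. Averaging changed the differences of members with several probe sets. Cox6c, for example, was at -0.71 between microglia and DC with the probe set used and at -1.13 with the other. The cause of the change without TZM replicate 2 was not tested.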
